A study of Arabidopsis thaliana with 12 samples.

Results

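In shoots of the Arabidopsis thaliana mutant cdk8-1, 122 loci had higher transcript levels on plates without sulfate than on plates with it, while in the laboratory wild type Col-0 they barely changed or fell. They were chosen from 32833 loci by the measured values themselves, in transcripts per 1000000 (TPM), a level scaled for transcript length and for the total of each library. A locus had to average at least 1 TPM over the 12 libraries, which 19127 did. Its mean log2(TPM + 1) had to rise by at most 0.25, or fall, without sulfate in Col-0, and to rise by at least 0.75 in cdk8-1. Every library of cdk8-1 without sulfate also had to stand above every library of cdk8-1 with sulfate and of Col-0 without sulfate, as 14% of tested loci did. Of the 19127 loci, 8174 met the Col-0 condition, 173 of those also met the cdk8-1 condition and 127 of those had no overlap. CYCB1;1, SMR7, VSP2, TK1a and AT3G22235 met all conditions and were left out by name. The rise in cdk8-1, the lack of one in Col-0, the gap between the genotypes without sulfate and the difference of both responses are therefore descriptions of the choice, and no test is read from them.

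The groups were cdk8-1 without sulfate, cdk8-1 with sulfate, Col-0 without sulfate and Col-0 with sulfate, with 3 libraries each. Shoots were cut from 10-day-old seedlings raised on Murashige and Skoog agar, where the plates held either 1.5 mM MgSO4 or, in its place, 1.5 mM MgCl2, so chloride differed together with sulfate. The mutant is known here by its allele name alone, and the labels name 1 mutant line, so effects of CDK8 and of anything else that line carries cannot be told apart. Whether the replicates were grown separately is not labelled, and the p-values then rest on a spread among samples that may be technical.

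CDK8 is the kinase of a module that docks onto Mediator, the complex that links transcription factors to RNA polymerase II, and it can hold back or help transcription depending on the gene. Plants take up sulfate to make cysteine, methionine, glutathione and, in this family, the glucosinolate defence compounds. When sulfate runs out they raise sulfate transport, break down glucosinolates and slow growth. Jasmonate, a lipid-derived hormone named in the title of the study beside CDK8, is a main switch of glucosinolate synthesis and of leaf defence.

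The libraries held 17441215 to 25175871 reads in genes, recovered from the deposited values, so that 1 read in a transcript of 1 kilobase stood for 0.0710 to 0.0962 TPM. CDK8 itself (AT5G63610) was at 2.96 to 6.09 TPM in the 6 cdk8-1 libraries and at 21.0 to 33.6 TPM in the 6 Col-0 libraries, with no overlap. Among markers of the labelled tissue RBCS1A was at 845 TPM or more in every library. CA1 averaged 2.98 TPM in Col-0 without sulfate, against 1390 TPM with it, and TGG2 reached 0 TPM. The 8 shoot markers summed to 12360 to 15990 TPM in cdk8-1 without sulfate and 83150 to 86770 TPM in cdk8-1 with sulfate. In Col-0 they summed to 4754 to 4990 TPM without sulfate and 83180 to 86410 TPM with sulfate. A pair of libraries stood furthest apart in markers of other tissue. The 12 root markers summed to 39.4, 9.61 and 16.5 TPM in cdk8-1 without sulfate, 11.2, 10.98 and 2.53 TPM in cdk8-1 with sulfate, 4.99, 7.55 and 8.07 TPM in Col-0 without sulfate and 5.26, 4.34 and 10.4 TPM in Col-0 with sulfate. Replicate 1 of cdk8-1 without sulfate was thus the highest of the 12 libraries in root markers. Replicate 3 of that group was also above every library of the other groups, while replicate 2 was within their range. Of the 12 root markers 4 were tested, with a median change without against with sulfate of 0.90 in cdk8-1 and 0.21 in Col-0, in log2(TPM + 1). The 7 seed storage markers summed to 226 TPM in replicate 1 of cdk8-1 with sulfate and to at most 4.76 TPM in every other library. The parts these tissues have in the results were not tested. Without replicate 1 of either cdk8-1 group the rule took 149 loci, 109 of them among the 122, with replicate 3 of cdk8-1 without sulfate kept. In bulk shoots, fewer cells of a type and less RNA per cell cannot be told apart.

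The members were mostly low to middling in level. Their means in cdk8-1 without sulfate ran over 2.45 to 937 TPM with a median of 8.17 TPM, against medians of 2.97 TPM in cdk8-1 with sulfate, 2.92 TPM in Col-0 without sulfate and 3.43 TPM in Col-0 with sulfate. All members added together gave 4007, 3700 and 3499 TPM in cdk8-1 without sulfate, 1914, 1621 and 1546 TPM in cdk8-1 with sulfate, 1657, 1591 and 1506 TPM in Col-0 without sulfate and 1761, 1585 and 1432 TPM in Col-0 with sulfate. The sum in cdk8-1 without sulfate was the one that stood apart, and the other 9 libraries overlapped. Its place above cdk8-1 with sulfate and Col-0 without sulfate was fixed by the rule. A single member, AT1G73600, gave 1159, 828 and 824 TPM of the sums in cdk8-1 without sulfate. In 114 of the 122 members, or 93.4%, all 3 libraries of cdk8-1 without sulfate were above all 9 others, as in 13.5% of tested loci. Most of that count follows from the rule, since of the 2684 tested loci that met its condition on 6 of these 9 libraries, 2580, or 96.1%, also stood above Col-0 with sulfate. The other 8 members overlapped with Col-0 with sulfate. By count of reads, 68 of the 121 members with recovered reads had at least 100 reads in each library of cdk8-1 without sulfate, and 10 had fewer than 20 in some library.

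**Figure D1:**
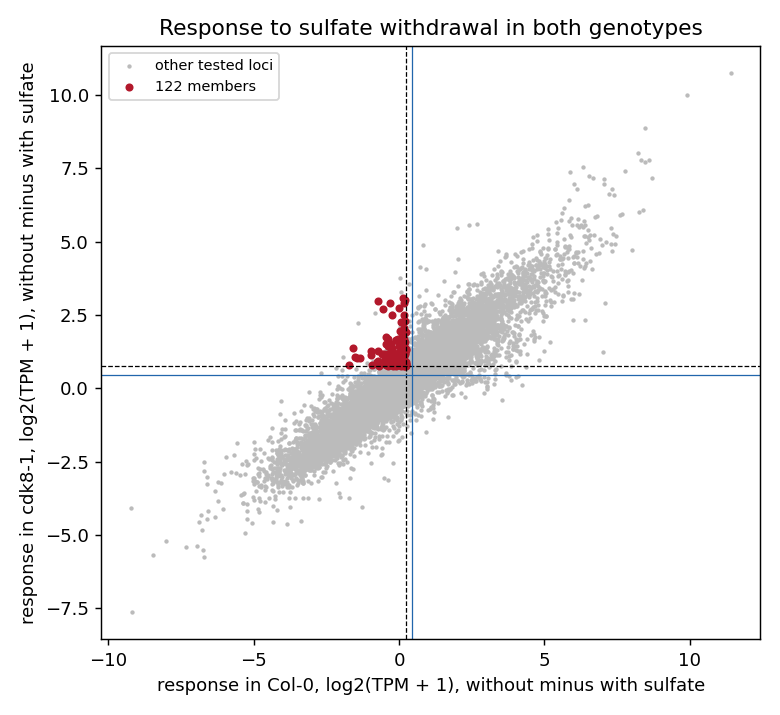
Change without against with sulfate in log2(TPM + 1), in Col-0 (x axis) and in cdk8-1 (y axis), for 19127 tested loci (grey) and the 122 members (red). Dashed lines mark the limits of 0.25 and 0.75, solid lines the median locus at 0.46 in Col-0 and 0.45 in cdk8-1, and the members fill the corner that the rule cut out.

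The values of each library add up to 1000000 TPM, except in replicate 3 of Col-0 with sulfate, where they add up to 1004125 TPM. On the deposited scale the median tested locus was itself higher without sulfate, by 0.45 in cdk8-1 and 0.46 in Col-0. The median response of the members was 1.09 in cdk8-1, or 0.64 above the median locus, and 0.03 in Col-0, or 0.43 below it. A member is thus a locus that rose more than the typical one in cdk8-1 and less than it in Col-0. The rule used both responses, so calls on them describe the choice, and nothing is read from them. By limma's test with Benjamini-Hochberg adjustment all 122 members passed as higher in cdk8-1 without sulfate (56.9% of all tested loci), and in Col-0 7 passed as higher (56.1% of tested loci) and 21 as lower (28.8%). After median-of-ratios scaling, which puts the median locus at 0.03 in cdk8-1 and 0.04 in Col-0, 110 of the 120 members still tested passed as higher in cdk8-1 (38.4% of tested loci on that scale), none as higher in Col-0 (41.6%) and 60 as lower in Col-0 (39.5%). The same rule applied on that scale took 81 loci, 43 of them among the 122.

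**Figure D2:**
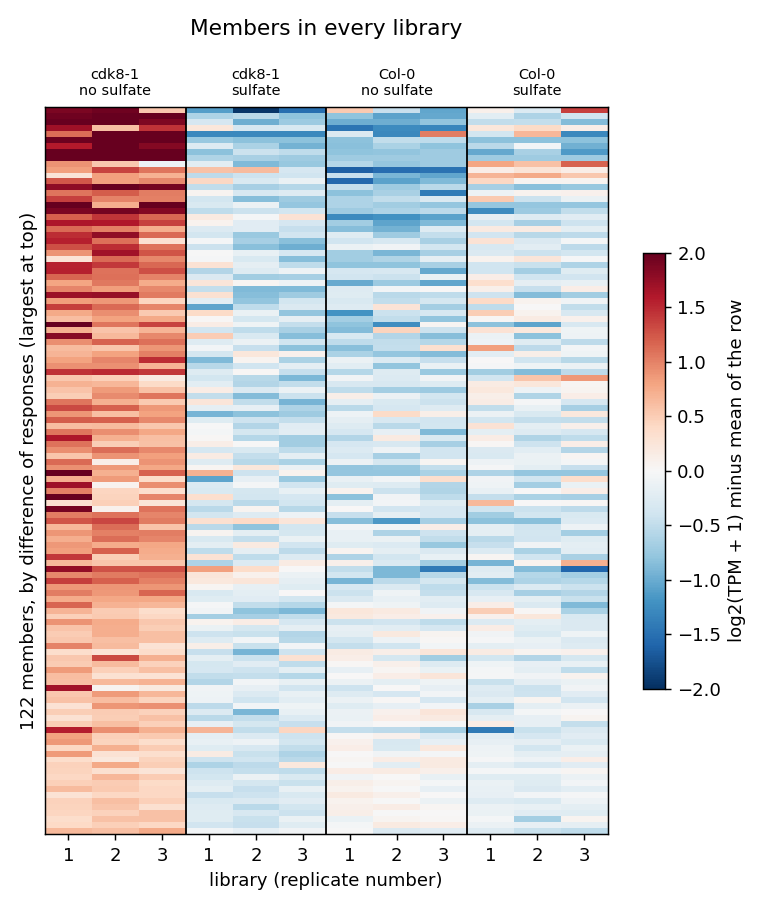
The 122 members (rows, ordered by the difference of both responses) in the 12 libraries (columns), as log2(TPM + 1) minus the mean of the row, with red above and blue below that mean. The 3 libraries of cdk8-1 without sulfate form the red block at the left, and in some rows single libraries of it are paler.

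The 3 members of the fixed jasmonate list were AOC1, OPR3 and VSP1. AOC1 (AT3G25760), an allene oxide cyclase of jasmonate synthesis in the plastid, was at 139, 142 and 105 TPM in cdk8-1 without sulfate, 67.0, 44.5 and 59.9 TPM in cdk8-1 with sulfate, 63.0, 55.1 and 61.1 TPM in Col-0 without sulfate, and 103, 82.0 and 73.7 TPM in Col-0 with sulfate. Its lowest value in cdk8-1 without sulfate, 105 TPM, was just above its highest in Col-0 with sulfate, 103 TPM, and the response was 1.17 in cdk8-1 and -0.51 in Col-0. The AOC genes have near-identical copies, so reads could be split among them. OPR3 (AT2G06050), the peroxisomal reductase that acts after AOC, was at 84.2, 79.8 and 84.7 TPM in cdk8-1 without sulfate, 47.1, 34.0 and 48.9 TPM in cdk8-1 with sulfate, 73.3, 71.5 and 77.6 TPM in Col-0 without sulfate, and 73.3, 68.4 and 69.4 TPM in Col-0 with sulfate. Here the group that stood apart was cdk8-1 with sulfate, which lay below all 9 other libraries, while the other 3 groups lay between 68.4 and 84.7 TPM. VSP1 (AT5G24780), a vegetative storage protein and common jasmonate marker, was at 35.2, 35.9 and 21.7 TPM in cdk8-1 without sulfate, 12.6, 5.09 and 5.76 TPM in cdk8-1 with sulfate, 8.35, 6.61 and 6.74 TPM in Col-0 without sulfate, and 7.31, 5.04 and 5.80 TPM in Col-0 with sulfate. Its 3 libraries of cdk8-1 without sulfate stood above all others, with replicate 3 the lowest of them. VSP1 lies next to VSP2, which was left out by name.

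With sulfate present OPR3 was lower in cdk8-1 by -0.70 ± 0.11 (SE, adjusted p = 0.00142) in limma's test. In the same test AOC1 was lower by -0.59 ± 0.16 (SE, adjusted p = 0.0293), while VSP1 differed by 0.24 ± 0.27 (SE, adjusted p = 0.609). Low values in cdk8-1 and high ones in Col-0 with sulfate favoured membership, so lower levels here are favoured by the choice. The same holds for every member compared at this supply below. Leaving out 1 library at a time took AOC1 past the threshold, to a highest adjusted p of 0.103, and left OPR3 at 0.00525 or below over all settings. Of the 30 genes on the jasmonate list 28 were tested, all but MYC2 and PDF1.2, which averaged below 1 TPM. MYC2 was at 0 TPM in all libraries. Exons on the opposite strand overlap 98.5% of its exon length, so that value is uncertain. Within cdk8-1 23 of the 28 were higher without than with sulfate and none lower, against 56.9% and 24.7% of all tested loci. Among the 23 are AOC1, OPR3, VSP1 and VSP2, whose rise was a condition of the rule. Within Col-0 16 were higher without sulfate and 3 lower, against 56.1% and 28.8%. In cdk8-1 against Col-0 without sulfate 6 were higher and 11 lower, against 26.3% and 15% of all tested loci. Among the 6 are AOC1, VSP1 and VSP2, which the rule required to be higher there. The median over the list without sulfate was -0.11, against 0.08 over all tested loci. In cdk8-1 against Col-0 with sulfate 2 were higher and 12 lower, against 8.85% and 4.84% of all tested loci. The 12 include the members AOC1 and OPR3 and the left-out VSP2. With sulfate the median over the list was -0.48, against 0.07 over all tested loci. AOC2, a near copy of AOC1 on that list and no member, averaged 740 TPM in cdk8-1 without sulfate, 123 TPM in cdk8-1 with sulfate, 761 TPM in Col-0 without sulfate and 174 TPM in Col-0 with sulfate, a response of 2.58 in cdk8-1 and 2.13 in Col-0.

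**Figure D3:**
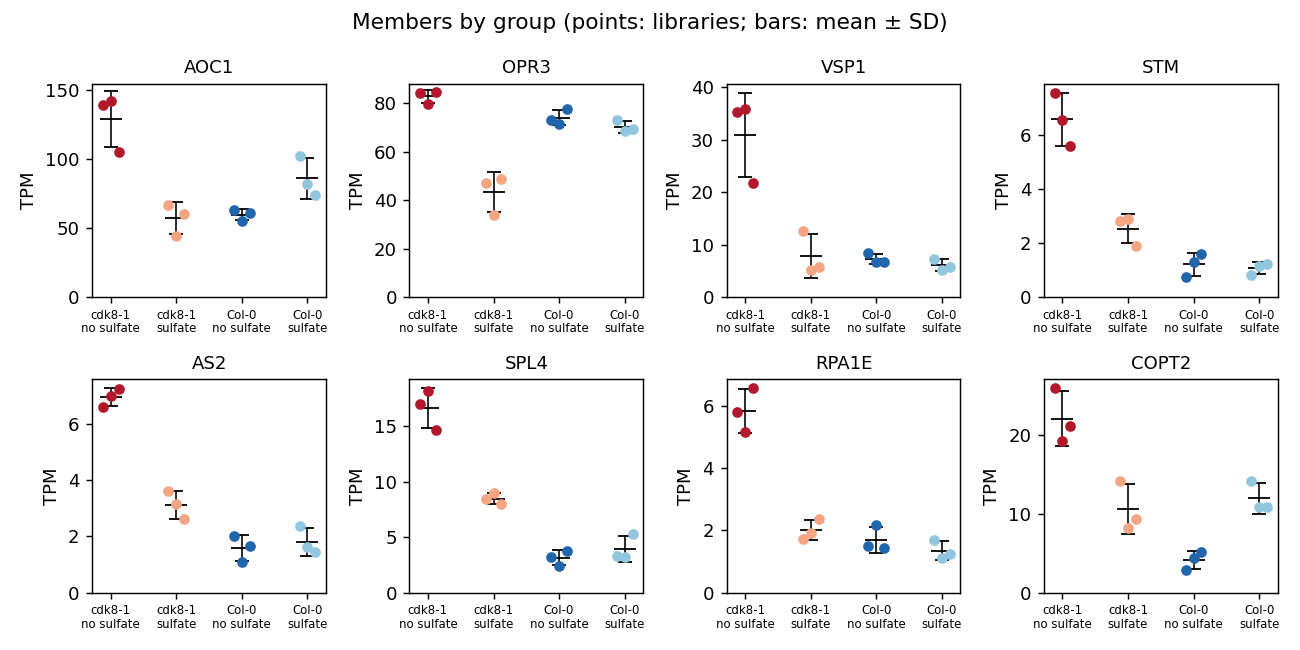
Levels of 8 members in TPM (y axes, from 0) in the 4 groups, with 1 point a library and black bars for the mean ± SD (n = 3). In OPR3 the group of cdk8-1 with sulfate lies below the other 3 groups, in COPT2 that of Col-0 without sulfate does, and in STM, AS2 and SPL4 both cdk8-1 groups lie above both Col-0 groups.

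Meristem and leaf shape regulators formed the longest group by role, with 11 members. The groups by role were drawn up after the members and their values were known, and serve as an order only. STM (AT1G62360), the KNOX homeobox factor that keeps meristem cells from forming organs, was at 7.56, 6.57 and 5.60 TPM in cdk8-1 without sulfate, 2.80, 2.88 and 1.90 TPM in cdk8-1 with sulfate, 0.728, 1.30 and 1.58 TPM in Col-0 without sulfate, and 0.799, 1.15 and 1.21 TPM in Col-0 with sulfate. AS2 (AT1G65620), a LOB-domain factor that keeps KNOX genes off in young leaves, was at 6.60, 7.01 and 7.25 TPM in cdk8-1 without sulfate, 3.61, 3.15 and 2.62 TPM in cdk8-1 with sulfate, 2.03, 1.11 and 1.65 TPM in Col-0 without sulfate, and 2.36, 1.62 and 1.44 TPM in Col-0 with sulfate. SPL4 (AT1G53160), a squamosa-promoter binding factor of phase change and flowering, was at 17.1, 18.201 and 14.7 TPM in cdk8-1 without sulfate, 8.44, 9.0 and 8.02 TPM in cdk8-1 with sulfate, 3.18, 2.43 and 3.80 TPM in Col-0 without sulfate, and 3.29, 3.25 and 5.26 TPM in Col-0 with sulfate. In these 3 genes every cdk8-1 library at either supply was above every Col-0 library, so the genotypes also differed with sulfate present. With sulfate the difference between cdk8-1 and Col-0 was 0.97 ± 0.17 (SE, adjusted p = 0.00287) in SPL4, 0.77 ± 0.18 (SE, adjusted p = 0.0168) in STM and 0.56 ± 0.17 (SE, adjusted p = 0.044) in AS2. The SPL4 call held under all 20 settings tried, that of STM failed in 4 of 19, with an adjusted p of up to 0.0614, and that of AS2 in 14 of 19, with one of up to 0.146. About 14.4% of the exon length of SPL4 lies opposite exons of another gene, where reads of both may not be told apart.

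The other 8 had no call with sulfate. TTG2 (AT2G37260), a WRKY factor of trichome and seed coat development, was at 11.4, 13.2 and 9.83 TPM in cdk8-1 without sulfate, 2.76, 1.85 and 1.57 TPM in cdk8-1 with sulfate, 3.65, 3.84 and 2.93 TPM in Col-0 without sulfate, and 3.05, 3.39 and 2.55 TPM in Col-0 with sulfate. Its 3 values in cdk8-1 without sulfate were above all others, and replicates 2 and 3 of cdk8-1 with sulfate were the lowest of the 12. HB16 averaged 69.0 ± 4.53 TPM in cdk8-1 without sulfate (SD, n = 3), against 39.8 ± 4.15 TPM with sulfate, and WOX13 19.0 ± 2.52 TPM against 9.74 ± 0.831 TPM. HB51, a homeobox gene of leaf form also known as LMI1, OFP7 of the ovate family and the peptide genes CLE27, RTFL13 and CLL1 were all below 6 TPM in every library. Cytokinin, the hormone that maintains shoot meristems together with STM, had 3 members on different levels of its pathway. The receptor gene WOL (AT2G01830) had a response of 0.79 in cdk8-1 and 0.12 in Col-0, the phosphotransfer gene AHP5 (AT1G03430) one of 0.79 in cdk8-1 and 0.12 in Col-0, and CKX4 (AT4G29740), which breaks cytokinin down, one of 0.96 in cdk8-1 and 0.16 in Col-0. Of the 3, AHP5 was lower in cdk8-1 with sulfate, by -0.45 ± 0.09 (SE, adjusted p = 0.00501), and all its Col-0 libraries lay between both cdk8-1 groups.

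Genes of DNA maintenance and of the division machinery gave 8 members. AT4G19130, named RPA1E and coding for a large subunit of the complex that coats single-stranded DNA, was at 5.80, 5.15 and 6.57 TPM in cdk8-1 without sulfate, 1.73, 1.92 and 2.38 TPM in cdk8-1 with sulfate, 1.49, 2.17 and 1.42 TPM in Col-0 without sulfate, and 1.69, 1.13 and 1.24 TPM in Col-0 with sulfate. AT1G49980, a DNA polymerase of the family that copies past damaged bases, was at 13.9, 17.3 and 15.2 TPM in cdk8-1 without sulfate, 8.56, 7.47 and 8.16 TPM in cdk8-1 with sulfate, 7.55, 7.09 and 8.86 TPM in Col-0 without sulfate, and 7.38, 6.68 and 7.74 TPM in Col-0 with sulfate. In both genes cdk8-1 without sulfate stood above all 9 other libraries, which lay at 1.13 to 2.38 TPM in AT4G19130 and at 6.68 to 8.86 TPM in AT1G49980. SIM (AT5G04470), a cyclin-dependent kinase inhibitor that turns dividing cells to endoreduplication, was at 8.74, 9.56 and 11.2 TPM in cdk8-1 without sulfate, 3.74, 6.09 and 5.41 TPM in cdk8-1 with sulfate, 2.91, 2.56 and 2.33 TPM in Col-0 without sulfate, and 4.25, 5.61 and 4.69 TPM in Col-0 with sulfate. CYCD4;2 (AT5G10440), a D-type cyclin that acts on the opposite side of that switch, was at 4.27, 4.14 and 3.23 TPM in cdk8-1 without sulfate, 1.80, 1.17 and 1.32 TPM in cdk8-1 with sulfate, 1.61, 1.61 and 1.71 TPM in Col-0 without sulfate, and 2.63, 2.80 and 2.34 TPM in Col-0 with sulfate. SIM fell by 0.70 and CYCD4;2 by 0.44 in Col-0 without sulfate, while both rose in cdk8-1. TON1B, which is needed for the ring of microtubules that marks the division plane, had a response of 0.81 in cdk8-1 and -0.44 in Col-0, and TRM12, of a family that recruits TON1, one of 0.77 in cdk8-1 and 0.24 in Col-0. The DNA glycosylase gene AT1G80850 and the spindle checkpoint gene AT3G28370 had responses of 0.75 and 0.90 in cdk8-1. SIM, AT1G80850 and AT3G28370 have 31.4%, 44.5% and 40.3% of their exon length opposite exons of another gene, so their values are uncertain.

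None of the 8 is on the fixed list of 31 DNA damage genes, 3 of which (CYCB1;1, SMR7 and TK1a) met the rule and were left out by name. On that list 30 genes were tested, and cdk8-1 was above Col-0 without sulfate in 22 and below it in none, against 26.3% and 15% of all tested loci. Among the 22 are the 3 that met the rule, which required them to be higher there. With sulfate cdk8-1 was above Col-0 in 4 and below in none, against 8.85% and 4.84%. The median of the list was 0.93 without sulfate, against 0.08 over all tested loci, and 0.12 with sulfate, against 0.07. In Col-0 11 genes of the list were higher and 12 lower without sulfate, against 56.1% and 28.8%. BRCA1, a repair gene that was lower, averaged 6.63 TPM in cdk8-1 without sulfate, 5.49 TPM in cdk8-1 with sulfate, 1.21 TPM in Col-0 without sulfate and 4.89 TPM in Col-0 with sulfate. Here and in the other lists the genes were picked with earlier results known. The lists of DNA replication (17 genes), mitosis (15), salicylate (14), iron (17), sulfur limitation (14), mitochondrial stress (8), protein folding (10) and growth (11) held no member. Of the sulfur limitation genes all 14 were higher without sulfate in both genotypes, against 56.9% of all tested loci in cdk8-1 and 56.1% in Col-0, with a median of 3.87 in cdk8-1 and 4.41 in Col-0. Both chromatin genes among the members, CHR38 (also CLSY1), which serves RNA-directed DNA methylation, and SUVR4, a histone methyltransferase, were near the lower limit of the rule, with responses of 0.77 and 0.89 in cdk8-1.

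The 15 members with the largest difference between both responses, in log2(TPM + 1), are described in 2 sets by their response in Col-0, which were drawn up with the values known. That response lay between -0.56 (ABCA10) and 0.21 (AT2G24255) in 8 of them and between -1.72 (ADS4) and -0.72 (LTP4) in the other 7. ABCA10 (AT5G61740), an ABC transporter, was at 8.34, 8.62 and 9.97 TPM in cdk8-1 without sulfate, 0.581, 0.667 and 0.384 TPM in cdk8-1 with sulfate, 0.387, 0.155 and 0.191 TPM in Col-0 without sulfate, and 1.104, 0.574 and 0.832 TPM in Col-0 with sulfate. AT3G12410, of the ribonuclease H-like fold, was at 8.91, 9.82 and 6.21 TPM in cdk8-1 without sulfate, 0.574, 0 and 0.190 TPM in cdk8-1 with sulfate, 0, 0 and 0.141 TPM in Col-0 without sulfate, and 0.399, 0.425 and 0.0822 TPM in Col-0 with sulfate. AT3G02810, a receptor-like cytoplasmic kinase, was at 5.67, 5.91 and 5.97 TPM in cdk8-1 without sulfate, 0.0709, 0.0407 and 0 TPM in cdk8-1 with sulfate, 0, 0 and 0 TPM in Col-0 without sulfate, and 0, 0 and 0 TPM in Col-0 with sulfate. The highest of the other 9 libraries was at 1.104 TPM in ABCA10 and lower in the other 2, while all libraries of cdk8-1 without sulfate were above 5 TPM. AT2G24255, an F-box and kelch protein, was at 5.86, 9.60 and 6.44 TPM in cdk8-1 without sulfate, 0.0545, 0 and 0 TPM in cdk8-1 with sulfate, 0, 0.244 and 0.235 TPM in Col-0 without sulfate, and 0, 0 and 0 TPM in Col-0 with sulfate. HVA22G (AT1G75700), whose family was found by its response to abscisic acid in barley, was at 5.27, 8.64 and 6.47 TPM in cdk8-1 without sulfate, 0.752, 0.345 and 0.0869 TPM in cdk8-1 with sulfate, 0.162, 0.336 and 0.194 TPM in Col-0 without sulfate, and 0.439, 1.01 and 0.0753 TPM in Col-0 with sulfate. AT2G35070, an uncharacterized protein, was at 8.82, 10.9 and 9.53 TPM in cdk8-1 without sulfate, 0.229, 0.612 and 0.529 TPM in cdk8-1 with sulfate, 0.246, 0.256 and 0.329 TPM in Col-0 without sulfate, and 0.0742, 0.395 and 0 TPM in Col-0 with sulfate. The other 9 libraries reached at most 1.01 TPM in HVA22G and less in AT2G24255 and AT2G35070. ACC2 (AT1G36180), a plastid acetyl-CoA carboxylase that starts fatty acid synthesis, was higher in level, at 21.1, 25.3 and 23.2 TPM in cdk8-1 without sulfate, 3.57, 3.03 and 3.32 TPM in cdk8-1 with sulfate, 3.60, 2.94 and 3.42 TPM in Col-0 without sulfate, and 3.04, 2.59 and 2.80 TPM in Col-0 with sulfate. Its other 9 libraries lay within 2.59 to 3.60 TPM. The locus annotated as a small nucleolar RNA, AT4G04475, rested on 24 reads over the 3 libraries of cdk8-1 without sulfate, at 4.32, 8.86 and 10.6 TPM, and was at 0 in all libraries of cdk8-1 with sulfate. In Col-0 it reached 3.99 TPM, close to the lowest value of cdk8-1 without sulfate.

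The other 7 all had a lower mean log2(TPM + 1) in Col-0 without sulfate, which follows from how the sets were drawn up. COPT2 (AT3G46900), a copper uptake transporter, was at 26.0, 19.3 and 21.2 TPM in cdk8-1 without sulfate, 14.2, 8.27 and 9.39 TPM in cdk8-1 with sulfate, 2.84, 4.43 and 5.16 TPM in Col-0 without sulfate, and 14.2, 10.8 and 10.9 TPM in Col-0 with sulfate. ADS4 (AT1G06350), a fatty acid desaturase, was at 4.51, 6.88 and 5.49 TPM in cdk8-1 without sulfate, 3.66, 3.82 and 1.46 TPM in cdk8-1 with sulfate, 0, 0.0744 and 0.115 TPM in Col-0 without sulfate, and 2.39, 2.69 and 2.40 TPM in Col-0 with sulfate. GSTF14 (AT1G49860), a phi-class glutathione transferase, was at 7.93, 3.19 and 6.52 TPM in cdk8-1 without sulfate, 2.22, 1.19 and 1.202 TPM in cdk8-1 with sulfate, 0, 0.155 and 0.120 TPM in Col-0 without sulfate, and 2.23, 2.59 and 2.01 TPM in Col-0 with sulfate. In all 3 the libraries of Col-0 without sulfate were below all 9 others, and the genotypes overlapped with sulfate. AT1G05136, an uncharacterized protein, was at 2.73, 4.48 and 4.02 TPM in cdk8-1 without sulfate, 1.17, 1.34 and 1.35 TPM in cdk8-1 with sulfate, 1.26, 0.653 and 0.503 TPM in Col-0 without sulfate, and 3.98, 4.24 and 3.51 TPM in Col-0 with sulfate. GolS2 (AT1G56600), a galactinol synthase that makes the precursor of protective raffinose sugars, was at 4.02, 2.91 and 1.51 TPM in cdk8-1 without sulfate, 1.32, 0.461 and 0.597 TPM in cdk8-1 with sulfate, 0.803, 0.578 and 0.643 TPM in Col-0 without sulfate, and 3.63, 3.03 and 5.06 TPM in Col-0 with sulfate. LTP4 (AT5G59310), a lipid transfer protein of the leaf surface, was at 13.1, 13.8 and 4.55 TPM in cdk8-1 without sulfate, 0.793, 0 and 0.344 TPM in cdk8-1 with sulfate, 4.49, 1.78 and 0.855 TPM in Col-0 without sulfate, and 3.09, 2.16 and 8.85 TPM in Col-0 with sulfate. In AT1G05136 and GolS2 Col-0 was lower without sulfate with no overlap. In LTP4 the 2 Col-0 groups overlapped, and the response in Col-0 was -0.72. In all 3 the values of cdk8-1 without sulfate overlapped with those of Col-0 with sulfate. AT5G11460, of the DUF581 zinc-binding family, was at 9.23, 10.2 and 8.89 TPM in cdk8-1 without sulfate, 4.06, 2.90 and 3.08 TPM in cdk8-1 with sulfate, 1.76, 2.09 and 0.846 TPM in Col-0 without sulfate, and 3.55, 4.12 and 4.17 TPM in Col-0 with sulfate. The difference of the responses was 3.69 ± 0.71 (SE) in LTP4, which was the largest of the 122, 2.37 ± 0.30 in COPT2 and 2.25 ± 0.25 in AT5G11460, the smallest of the 15. In LTP4 replicate 3 of cdk8-1 without sulfate and replicate 1 of Col-0 without sulfate almost met, at 4.55 and 4.49 TPM. Over the whole set the response in Col-0 was below 0 in 57 members and 0 or above in 65, and it was -0.75 or lower in 8 of the 57.

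Stretches upstream of 3 members are given because each holds the G-box CACGTG, the site that basic helix-loop-helix factors of the jasmonate pathway and the basic leucine zipper factors of the abscisic acid pathway can bind. They are AT2G35070 and TTG2, described above, and AT2G47780, of the rubber elongation factor family, which was at 4.10, 2.93 and 3.00 TPM in cdk8-1 without sulfate and at no more than 1.84 TPM in the other libraries. The sequences are the 250 bases before the gene start in RefSeq (TAIR10.1), 5′ to 3′, all on the plus strand, at chr2:14783004-14783253, chr2:15644561-15644810 and chr2:19569790-19570039, with the G-box in capitals.
AT2G35070: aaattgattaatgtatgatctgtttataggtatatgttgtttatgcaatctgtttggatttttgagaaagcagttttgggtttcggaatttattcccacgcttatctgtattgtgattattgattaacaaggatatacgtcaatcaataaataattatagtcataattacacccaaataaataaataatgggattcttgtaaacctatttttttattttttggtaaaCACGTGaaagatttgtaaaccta
TTG2: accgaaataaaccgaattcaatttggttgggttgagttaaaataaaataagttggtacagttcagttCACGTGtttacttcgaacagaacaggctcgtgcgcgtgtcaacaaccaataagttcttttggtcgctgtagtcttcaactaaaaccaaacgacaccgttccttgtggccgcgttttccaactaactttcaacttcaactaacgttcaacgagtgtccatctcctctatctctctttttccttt
AT2G47780: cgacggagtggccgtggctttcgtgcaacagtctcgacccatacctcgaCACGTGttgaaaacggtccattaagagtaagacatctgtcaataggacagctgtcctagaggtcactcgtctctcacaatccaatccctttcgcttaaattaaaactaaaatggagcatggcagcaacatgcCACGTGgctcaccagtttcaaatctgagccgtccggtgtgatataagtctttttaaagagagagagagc
The G-box starts 23 bases before the gene start in AT2G35070, 183 bases before it in TTG2, and 201 and 69 bases before it in AT2G47780. Over the window from 250 bases before to 50 bases after the start, on both strands, a G-box was present in 9 of the 117 protein-coding members, or 7.69%, against 8.89% of 18568 tested protein-coding loci. None of AOC1, OPR3 and VSP1 held one. The core TTGAC of the W-box, bound by WRKY factors, was in 53.8% of members against 51% of tested loci. The TGA factor core TGACG was in 22.2% against 23.8%, the mitosis-specific activator core AACGG in 23.9% against 26.4%, and the palindrome bound by the DNA damage factor SOG1 in 8.55% against 10.9%. The E2F site GCGGGAAA was in 0.855% against 0.813%, the GCC box GCCGCC in 0.855% against 2.67% and the evening element AAAATATCT in 1.71% against 3.08%. No motif was thus much more frequent in the members than in tested loci, within these windows.

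The most abundant members were single genes of several pathways. AT1G73600, a phosphoethanolamine N-methyltransferase of phosphocholine synthesis, was at 1159, 828 and 824 TPM in cdk8-1 without sulfate, 601, 442 and 344 TPM in cdk8-1 with sulfate, 242, 182 and 127 TPM in Col-0 without sulfate, and 286, 187 and 113 TPM in Col-0 with sulfate. It was the highest member in every group, the cdk8-1 libraries were above the Col-0 libraries at either supply, and with sulfate the difference was 1.30 ± 0.32 (SE, adjusted p = 0.0183). That call was lost without replicate 1 of cdk8-1 with sulfate or replicate 3 of Col-0 with sulfate, with an adjusted p of up to 0.0701 over the settings. PRF3 (AT5G56600), a profilin that binds actin, was at 269, 266 and 227 TPM in cdk8-1 without sulfate, 97.4, 86.9 and 82.8 TPM in cdk8-1 with sulfate, 102, 92.1 and 88.5 TPM in Col-0 without sulfate, and 90.0, 82.6 and 82.0 TPM in Col-0 with sulfate. GDH1 (AT5G18170), a glutamate dehydrogenase, was at 138, 209.8 and 215 TPM in cdk8-1 without sulfate, 78.7, 109.5 and 106 TPM in cdk8-1 with sulfate, 95.1, 102 and 109 TPM in Col-0 without sulfate, and 71.6, 99.1 and 104 TPM in Col-0 with sulfate. In GDH1 replicate 1 was the lowest of its group in every group. AT1G55450, annotated as a methyltransferase that uses S-adenosylmethionine, was at 188, 195 and 180.0 TPM in cdk8-1 without sulfate, 83.8, 84.6 and 95.5 TPM in cdk8-1 with sulfate, 155, 147 and 143 TPM in Col-0 without sulfate, and 143, 159 and 109 TPM in Col-0 with sulfate. It had the pattern of OPR3, with cdk8-1 with sulfate below all other libraries, and with sulfate it was lower in cdk8-1 by -0.62 ± 0.11 (SE, adjusted p = 0.00368). AT3G22970, of the DUF506 family, was at 141, 153 and 155 TPM in cdk8-1 without sulfate, 78.6, 66.4 and 59.1 TPM in cdk8-1 with sulfate, 68.5, 49.3 and 56.6 TPM in Col-0 without sulfate, and 66.5, 58.6 and 47.2 TPM in Col-0 with sulfate. ABCB1 (AT2G36910), an exporter of auxin, was at 100.0, 101 and 100.1 TPM in cdk8-1 without sulfate, 55.3, 48.0 and 45.8 TPM in cdk8-1 with sulfate, 42.5, 43.9 and 38.0 TPM in Col-0 without sulfate, and 40.1, 44.8 and 39.8 TPM in Col-0 with sulfate. The 3 values of ABCB1 in cdk8-1 without sulfate were within 1 TPM of each other. AT5G19240, a GPI-anchored glycoprotein, averaged 106 ± 21.6 TPM in cdk8-1 without sulfate, 45.6 ± 9.86 TPM in cdk8-1 with sulfate, 53.3 ± 4.23 TPM in Col-0 without sulfate and 47.3 ± 16.3 TPM in Col-0 with sulfate (SD, n = 3). PIA1 (AT2G20630), a protein phosphatase of the PP2C class, averaged 73.4 ± 2.09, 42.1 ± 3.30, 58.0 ± 4.78 and 48.9 ± 0.913 TPM in the same order of groups.

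Immune receptors of the NLR class, which sense pathogen effectors inside the cell, gave 6 members. WRR4 (AT1G56510), a receptor for white rust, was at 30.8, 34.2 and 29.4 TPM in cdk8-1 without sulfate, 18.8, 16.5 and 18.7 TPM in cdk8-1 with sulfate, 21.3, 23.5 and 20.5 TPM in Col-0 without sulfate, and 39.0, 24.4 and 24.9 TPM in Col-0 with sulfate. It overlapped between cdk8-1 without sulfate and Col-0 with sulfate, and with sulfate it was lower in cdk8-1 by -0.65 ± 0.15 (SE, adjusted p = 0.0127). AT1G62630 was at 15.4, 18.6 and 14.9 TPM in cdk8-1 without sulfate, 10.3, 8.70 and 7.88 TPM in cdk8-1 with sulfate, 3.71, 4.70 and 3.61 TPM in Col-0 without sulfate, and 11.01, 7.39 and 7.57 TPM in Col-0 with sulfate. Here Col-0 without sulfate was the lowest group, with no overlap. AT1G56540 had a response of 0.87 in cdk8-1 and -0.46 in Col-0, AT1G63360 one of 0.81 in cdk8-1 and -0.11 in Col-0, AT3G44630 one of 1.1 in cdk8-1 and 0.14 in Col-0 and AT5G40910 one of 0.83 in cdk8-1 and 0.25 in Col-0. WRR4 and AT1G56540 have 1 tested locus between them. Adjacent or almost adjacent members made 5 pairs in all, the others being AHP5 with AT1G03440, AT1G61255 with AT1G61260, AT3G22961 with AT3G22970 and AT1G73600 with AT1G73630. NLR genes are often near-identical to their neighbours, so reads could be split among copies that are not listed here. FLS3, a flavonol synthase-like gene, lies 1 tested locus from CDK8.

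Genes of metal and nitrogen transport and of the cell wall included several that varied among replicates of cdk8-1 without sulfate. NAS2 (AT5G56080), which makes the metal chelator nicotianamine, was at 6.43, 1.82 and 2.90 TPM in cdk8-1 without sulfate, 1.77, 0.291 and 0.805 TPM in cdk8-1 with sulfate, 0, 0 and 0.109 TPM in Col-0 without sulfate, and 0.123, 0 and 0 TPM in Col-0 with sulfate. AMT1;3 (AT3G24300), an ammonium transporter, was at 5.10, 0.975 and 2.58 TPM in cdk8-1 without sulfate, 0.551, 0.827 and 0.441 TPM in cdk8-1 with sulfate, 0.593, 0.569 and 0.256 TPM in Col-0 without sulfate, and 0.784, 0.176 and 0.722 TPM in Col-0 with sulfate. LAC3 (AT2G30210), a laccase, was at 16.0, 6.55 and 8.38 TPM in cdk8-1 without sulfate, 5.82, 2.92 and 1.67 TPM in cdk8-1 with sulfate, 2.90, 2.23 and 1.69 TPM in Col-0 without sulfate, and 3.42, 1.74 and 3.49 TPM in Col-0 with sulfate. NLM1 (AT4G19030), an aquaporin-like channel also called NIP1;1, was at 18.5, 8.04 and 10.0 TPM in cdk8-1 without sulfate, 3.74, 3.06 and 2.10 TPM in cdk8-1 with sulfate, 1.47, 0.825 and 3.42 TPM in Col-0 without sulfate, and 1.43, 1.06 and 2.44 TPM in Col-0 with sulfate. In these 4 replicate 1 of cdk8-1 without sulfate was the highest of the 12 libraries and replicate 2 the lowest of its group, the order in which the summed root markers fell there. Across all members 17 had a spread of at least 2-fold within cdk8-1 without sulfate, the widest being 5.49-fold in AT1G30750 and 5.38-fold in AT1G52070. Replicate 1 was the highest in 14 of these 17, and in 11 the order was that of the root markers. Over all tested loci, whatever their spread, replicate 1 was the highest in 35%. Tested loci with such a spread were not counted, nor how often they had this order, so no excess is read from these counts. The 11 were LAC3, NAS2, NLM1, AMT1;3, GSTF14, FLS3, AT1G30750, AT1G52070, AT1G71740, AT2G43610 and AT3G23180. Over all 122 members that order was found in 22, or 18%, against 17.2% of tested loci. Among root markers CASP1 averaged 6.85 TPM in cdk8-1 without sulfate, 2.56 TPM in cdk8-1 with sulfate, 1.80 TPM in Col-0 without sulfate and 1.52 TPM in Col-0 with sulfate, and EXPA7 0.562, 0.418, 0.367 and 0.0739 TPM in the same order. Without replicate 1 of cdk8-1 without sulfate the rule took 124 loci, 106 of them among the 122. What root tissue contributes to these genes was not tested.

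**Figure D4:**
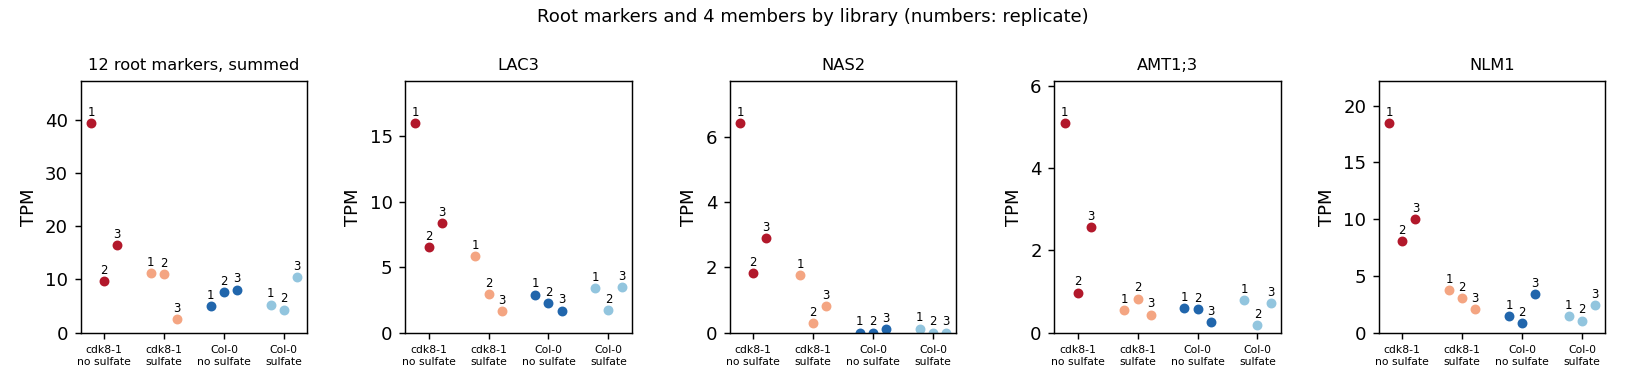
Summed TPM of 12 root markers and TPM of LAC3, NAS2, AMT1;3 and NLM1 (y axes, from 0) in the 4 groups, with 1 point a library and its replicate number above it. In all 5 panels replicate 1 of cdk8-1 without sulfate is the highest library, at 39.4 TPM in the marker sum, and replicate 2 the lowest of its group.

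Other transport and wall genes were steadier. NAXT1, a nitrate excretion transporter, had a response of 0.92 in cdk8-1 and 0.13 in Col-0 and was lower in cdk8-1 with sulfate by -0.51 ± 0.12 (SE, adjusted p = 0.0139). PARVUS (AT1G19300), a glycosyltransferase of xylan synthesis, was at 26.3, 25.0 and 23.2 TPM in cdk8-1 without sulfate, 8.90, 6.51 and 6.67 TPM in cdk8-1 with sulfate, 8.37, 7.99 and 10.0 TPM in Col-0 without sulfate, and 12.4, 8.22 and 8.33 TPM in Col-0 with sulfate. KCS17 (AT4G34510), which elongates fatty acids for the leaf surface, was at 4.78, 5.83 and 4.60 TPM in cdk8-1 without sulfate, 1.87, 1.46 and 2.07 TPM in cdk8-1 with sulfate, 0.0428, 0.0889 and 0.206 TPM in Col-0 without sulfate, and 1.24, 1.11 and 1.16 TPM in Col-0 with sulfate. KCS17 was at 0.206 TPM or less in Col-0 without sulfate, and the cdk8-1 libraries were above the Col-0 libraries at either supply. With sulfate the difference in KCS17 was 0.36 ± 0.14 (SE, adjusted p = 0.115) in limma's test and was not called. GSTF5, the other phi-class glutathione transferase, averaged 3.37 ± 0.685 TPM in cdk8-1 without sulfate and stayed below 1 TPM in the other 9 libraries. The tetraspanin genes TET2 and TET5 had responses of 1.22 and 0.76 in cdk8-1, and 49.8% of the exon length of TET2 lies opposite another gene. By type, 117 members were protein-coding, 3 were long noncoding RNAs, 1 another noncoding RNA and 1 a small nucleolar RNA. In exonic length they had a median of 1462 bases against 1754 in all tested loci, and 31, or 25.4%, had a single exon, against 16.9%. Exons of 13 of the 122 members were overlapped over at least 10% of their length by exons on the opposite strand. The same was true of 10.8% of tested loci.

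The one comparison that was no condition of the rule was cdk8-1 against Col-0 with sulfate present, although low values in cdk8-1 and high ones in Col-0 with sulfate favour membership. By limma's test with Benjamini-Hochberg adjustment over 19127 loci, 4 members were higher in cdk8-1, against 8.85% of tested loci, and 14 were lower, against 4.84%. The median difference was -0.07, against 0.07 over all tested loci, with 47 members above 0 and 75 below. The 4 higher were AT1G73600, SPL4, STM and AS2. Of the 14 lower ones LTP4 and GolS2 had the largest differences, -1.91 ± 0.50 (SE, adjusted p = 0.0251) and -1.46 ± 0.26 (SE, adjusted p = 0.00336), followed by AT1G05136 with -1.1 ± 0.18 (SE, adjusted p = 0.00233). AT2G06345, AT1G61260, OPR3, AT4G03811, WRR4, AT1G55450, AOC1, CYCD4;2, NAXT1, AHP5 and AT5G66420 were lower by -0.95 to -0.45. LTP4, which varied widely among replicates, lost the call in 4 of 19 settings. The calls of AHP5, SPL4, AT1G55450, WRR4, GolS2, AT1G61260, OPR3, NAXT1 and AT5G66420 held under every setting tried. After median-of-ratios scaling 3 members were higher and 21 lower, and over all loci 852 were higher and 1236 lower, against 1693 higher and 925 lower on the deposited scale. Without sulfate all 122 members were above Col-0 in cdk8-1, by 0.16 to 3.13 with a median of 1.22. The difference of both responses ran over 0.53 to 3.69 with a median of 1.24. The rule used both of these differences, so they describe the choice.

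**Figure D5:**
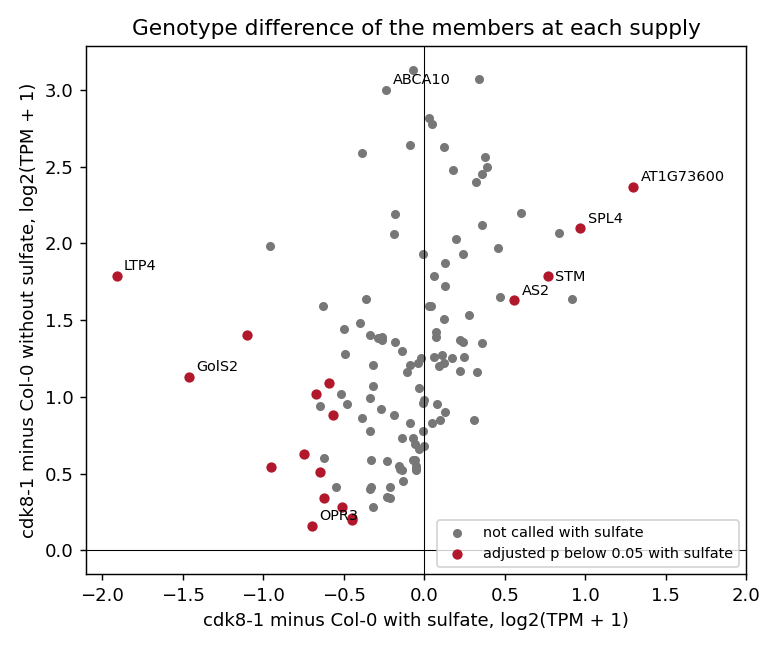
Difference between cdk8-1 and Col-0 in log2(TPM + 1) with sulfate (x axis) and without it (y axis) for the 122 members, with the 18 that passed limma's test with sulfate in red. All points lie above 0 on the y axis, while on the x axis 47 lie above 0 and 75 below, from -1.91 in LTP4 to 1.30 in AT1G73600.

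The limits of the rule cut through a continuous range. Just inside the limit of 0.75 in cdk8-1 were AT1G80850 at 0.754, TET5 at 0.761 and AT5G12920 at 0.762, and just outside were LBD37 at 0.749, AT1G36940 at 0.742 and AT5G14920 at 0.741. Just inside the limit of 0.25 in Col-0 were AT5G40910 at 0.246, GlcNAc1pUT2 at 0.243 and PIA1 at 0.240, and just outside were RecQl3 at 0.256, AT4G16750 at 0.257 and APG12B at 0.259. At the level of 1 TPM, HO4 at 1.04, AT1G71740 and AT5G58400, both at 1.12, were inside, and MYB36 at 0.978, AT2G30760 at 0.943 and AT1G04303 at 0.889 TPM outside. MYB36 is one of the root markers. Over all loci with at least 1 TPM, 6917 rose by 0.75 or more in cdk8-1, and 173 of these met the limit in Col-0.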

How the data were processed

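Total RNA of shoots was made into strand-specific libraries, per the labels' protocols. The authors deposited 1 table of TPM for 32833 loci in 12 libraries. Per the submitters' processing notes the tools were STAR 2.7.11b, featureCounts 2.0.8 and DESeq2 1.46, whose roles are not stated. Not given in the sources used here are the genome build, the annotation and the strand setting. Exonic lengths from RefSeq (TAIR10.1) turned 99.39% of the 267964 values above 0 into whole reads within 0.01 read, and 149 loci, COPT2 among them, had values that did not become whole. These reads gave the depths and 1 alternative. They may include PCR duplicates.

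Loci with a mean of at least 1 TPM (19127) were fitted in limma 3.58.1 (R 4.3.3) as log2(TPM + 1), with 4 group means, trended moderation and 8 residual degrees of freedom, two-sided, with Benjamini-Hochberg adjustment within a comparison and a threshold of 0.05. A fold change on this scale understates that of low genes. The members, gene lists, marker lists and tests were chosen with earlier results of these data known. Genes were named as the 15 members with the largest difference of both responses, the 10 with the highest mean in cdk8-1 without sulfate, members on a fixed list, and members of pairs or families, and TTG2, AT2G47780 and the examples by role were picked after their values were seen. Alternatives were other scalings, pseudocounts and filters, limma voom on the recovered reads, a replicate block and each library left out. All 12 libraries carry 1 batch label.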

Additional observations from a re-analysis of the deposited data

How the results depend on the processing

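The number of loci the rule takes depends on its scale and limits. It was 81 after median-of-ratios scaling, 55 with a mean of at least 5 TPM, 71 with a rise of at least 1 in cdk8-1, 58 with a rise of at most 0 in Col-0, 100 with rises relative to the median locus, of which 46 were among the 122, 133 and 141 with pseudocounts of 0.5 and 0.1, 170 with no filter on low values, and 116 to 153 when 1 library was left out, against 122, and 106 to 117 of the 122 were among those taken with 1 library left out. At a mean of at least 5 TPM only 55 of the 122 members were tested, so counts in that setting are out of fewer members. Members higher in cdk8-1 with sulfate numbered 2 at a mean of at least 5 TPM, 1 without the pair of libraries marked by root and seed transcripts (chosen after seeing the data) and 1 to 4 with 1 library left out, against 4, the lowest count without replicate 1 of cdk8-1 with sulfate. Members lower numbered 9 at a mean of at least 5 TPM and 9 to 15 with 1 library left out, against 14, the lowest without replicate 2 of cdk8-1 with sulfate. Over all loci that comparison had 1744 to 2600 calls with 1 library left out, against 2618, the lowest without replicate 3 of cdk8-1 with sulfate. Of 352 values of the 18 members called with sulfate, 304 kept the call, 48 lost it and none changed sign; the cause was not tested.

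The main fit did not pair the samples by replicate number, and whether the numbers mark a shared origin is not labelled. Deviations of same-numbered libraries correlated across genes at 0.0692 to 0.305 for replicate 1. They did so at -0.00434 to 0.0746 for replicate 2 and at 0.0238 to 0.157 for replicate 3. Libraries with different numbers were not compared in this way, so no effect of the number is read from these values. With the number as a block, more loci were called in every comparison. The counts were 15771 against 15607 for the response of cdk8-1 and 16363 against 16248 for that of Col-0. Between the genotypes they were 8377 against 7900 without sulfate and 3220 against 2618 with it. In the difference of the responses they were 5718 against 5171. With the block 6 members were higher and 16 lower in cdk8-1 with sulfate, against 4 and 14. Depth limits members such as AT4G04475 and AT1G05136, which rested on 24 and 18 reads in the 3 libraries of cdk8-1 without sulfate.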
